A study of Mus musculus with 17 samples.

Results

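Colorectal tumors of Tyk2DIEC mice, which lack Tyk2 in the intestinal epithelium alone, were compared with tumors of Tyk2wt mice, which carry the unaltered gene. The comparison takes 7 of the 17 libraries of the series, 4 from Tyk2DIEC and 3 from Tyk2wt tumors, chosen by the genotype in their labels and not by any measured value. Tyk2DIEC mice were Tyk2fl/fl with a Villin-cre transgene, so Cre recombinase is made in intestinal epithelial cells, where it removes exon 3 of Tyk2 with the start codon, while stromal and immune cells keep Tyk2. Tyk2wt mice were the Tyk2+/+ littermates of a line with germline deletion of Tyk2. Tyk2fl (Tyk2fl/fl without Cre, 7 libraries) are the littermates of Tyk2DIEC, and Tyk2KO (Tyk2 deleted in all cells, 3 libraries) those of Tyk2wt, and both are given beside the comparison. All mice were on a C57BL/6 background and all tumors were induced with azoxymethane, a mutagen, and dextran sulfate sodium, which inflames the colon. The tumors were dissected whole and so hold stroma and immune cells, and a legend of the study speaks of pooled tumor samples. Nothing states that the libraries of a group are from separate mice. Where they are not, the p-values speak of the spread among libraries alone, which may be technical. Ages and the hour of collection are not given in the sources used here. Because Tyk2DIEC and Tyk2wt come from different experiments, the loss of epithelial Tyk2, the floxed allele, the Cre transgene, the strain line and the experiment cannot be told apart in any difference below.

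Tyk2 is a Janus kinase bound to the receptors of type I interferons, IL-12, IL-23 and the IL-10 family. It phosphorylates STAT transcription factors, and in the colon its signals reach both the epithelium, where interferons and IL-22 act, and lymphocytes, where IL-12 drives the making of interferon γ. Interferons induce antiviral genes, the peptide-loading machinery of MHC class I and, through the class II transactivator, MHC class II.

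Counts assigned to genes totalled 19129696 to 20334948 per Tyk2DIEC library and 19789347 to 21318077 per Tyk2wt library, so depth was alike in both groups. Levels are given in CPM, read counts divided by library size with TMM (trimmed mean of M values) factors over all 17 libraries, and compare libraries for 1 gene, not genes with each other. Fold changes, their standard errors (SE) and adjusted p come from edgeR's quasi-likelihood F test on the 7 libraries with Benjamini-Hochberg adjustment over all genes tested. On the first principal component of the 500 most variable genes (51.7% of the variance) the Tyk2wt libraries lay between -19.59 and -13.3 and Tyk2DIEC replicates 2, 3 and 4 at 21.43, 29.69 and 12.58. Tyk2DIEC replicate 1 lay at -14.56, within the Tyk2wt range, and stood apart on the second component at 22.41. The summed level of 16 smooth muscle markers was 2350 CPM in that library, against 802 to 909 CPM in the other Tyk2DIEC libraries and 852 to 1090 CPM in Tyk2wt. The numbers of called genes are therefore also given without it. On the second component Tyk2wt replicate 3 also lay apart from its group, at -18.07 against -3.144 and -3.41 for Tyk2wt replicates 1 and 2. Epithelial identity was alike, with a summed level of 12 defining genes of 9770 to 12600 CPM in Tyk2DIEC and 10200 to 12500 CPM in Tyk2wt. Xist was at most 0.867 CPM in all 7 libraries, and Ddx3y, a Y-linked gene, was at 79.3 to 97.5 CPM in Tyk2wt and 82.5 to 89 CPM in Tyk2DIEC.

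The targeted gene was measured over its whole length (chr9:21104068-21131243, minus strand, GRCm38). Tyk2 (ENSMUSG00000032175.11) was at 55.5, 56.1 and 57.7 CPM in Tyk2wt and at 53.2, 55.8, 52.9 and 51.8 CPM in Tyk2DIEC, and the groups overlapped. The log2 fold change was -0.08 (SE 0.0532, 95% interval -0.20 to 0.04, adjusted p = 0.349 from edgeR). Tyk2fl libraries held 42.5 to 54.2 CPM and Tyk2KO libraries 58.1 to 59.1 CPM. Deletion of exon 3 leaves the rest of the transcript to be counted, so a count over the whole gene does not check the deletion. The study looked at the aligned reads and found none in exon 3 for Tyk2KO tumors and for most, but not all, Tyk2DIEC tumors. Within 5 Mb either side of Tyk2, 80 genes were tested and 0 were called in edgeR, DESeq2 or limma voom. Of the 80, 26 had an unadjusted p under 0.05 in edgeR, where 27.8% of all genes did, and the median log2 fold change was 0.06. Values of the groups did not overlap for 27.5% of the genes in the window and 24.5% of all genes. Tmed1, chosen after its values were seen, passed the adjusted p without reaching the fold minimum (log2 fold change -0.43, adjusted p = 0.049 from edgeR). It codes for a protein of vesicle traffic. Without Tyk2DIEC replicate 1, 1 gene in the window was called.

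In all, 46 of 16322 genes tested differed between Tyk2DIEC and Tyk2wt tumors at an adjusted p under 0.05 and more than 2-fold (0.282% of those tested), of which 19 were higher (0.116%) and 27 lower (0.165%) in Tyk2DIEC. The 19 higher genes included the clock genes Per2 and Per3, the gut hormone gene Pyy, the keratin gene Krt15 and a few genes with neighbours that moved alike. Of the 27 lower genes 13 were immunoglobulin variable segments, and the others included B cell, NK cell and T cell genes, the inflammatory caspase gene Casp4 and the interferon-induced gene Ifi27l2a. Values of both groups did not overlap for any of the 46, which was so for 24.5% of all genes tested. Of the protein-coding genes, 11 were higher by a log2 fold change of 1.10 to 4.30 and 14 lower by one of -4.17 to -1.06. The adjusted p alone was passed by 257 genes (1.57%), 155 higher and 102 lower. The median log2 fold change of all genes was -0.0033.

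The number called rested on single libraries. Without Tyk2DIEC replicate 1 there were 20 higher and 85 lower genes, without Tyk2wt replicate 2 41 and 72, and without Tyk2DIEC replicate 4 31 and 34. Without Tyk2wt replicate 1 there were 5 and 5, without Tyk2wt replicate 3 2 and 0, without Tyk2DIEC replicate 2 10 and 0 and without Tyk2DIEC replicate 3 3 and 0. Among the 46, Myo18b and Gm42031 stayed called whichever library was left out. For the other 44 the libraries without which the call was lost are named below beside the genes described. Fitted with the other 10 libraries in 1 model of 4 groups, which adds replicates for the estimate of spread, 18 genes were higher and 50 lower, and 37 of the 46 were among them.

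**Figure D1:**
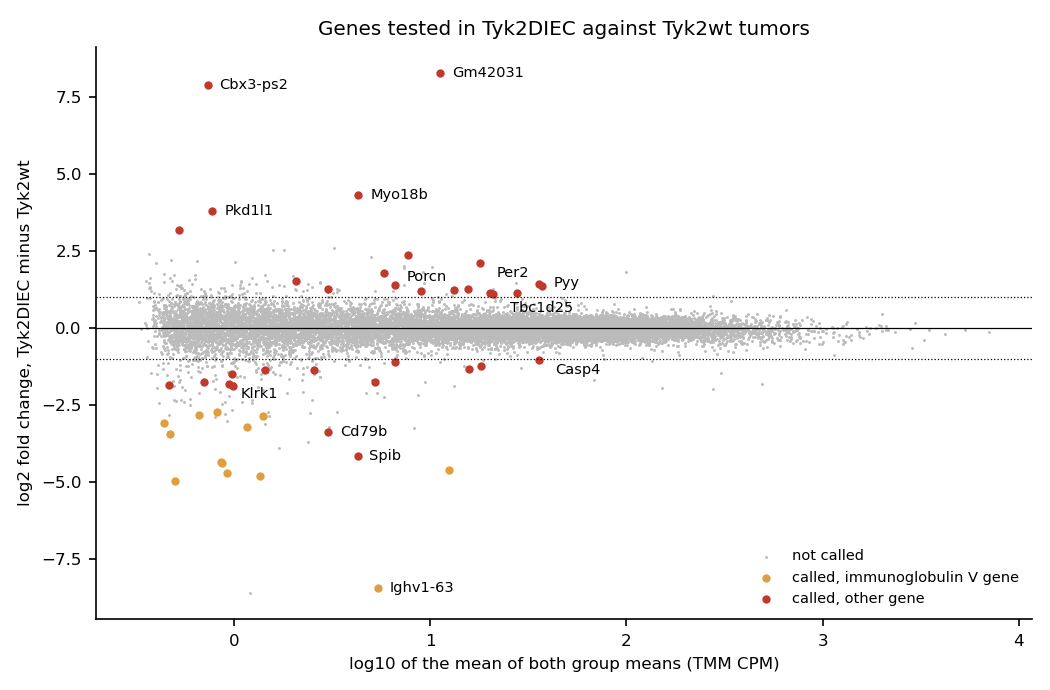
Each point is 1 of 16322 tested genes. The horizontal axis is the log10 of the mean level in CPM over both group means and the vertical axis the log2 fold change, Tyk2DIEC minus Tyk2wt, with dotted lines at 2-fold. Called immunoglobulin variable segments (orange, 13) all lie below 0, and the other called genes (red) lie on both sides, with Gm42031 the highest at a fitted 8.28.

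Interferon-induced genes leaned a little below their Tyk2wt level in Tyk2DIEC tumors. Of 42 genes tested from a list of interferon-stimulated genes 1, Ifi27l2a, was called lower and none higher (9 had an unadjusted p under 0.05 in edgeR, where 27.8% of all genes did), and the median log2 fold change was -0.26. Of 32 genes induced by interferon γ 0 were called in edgeR, DESeq2 and limma voom (7 had an unadjusted p under 0.05 in edgeR), with a median of -0.25, and their groups overlapped for 27. Below 0 were 39 of the 42 and 28 of the 32, where 8247 of all 16322 genes were. The medians of both lists moved with 1 library, since without Tyk2wt replicate 3 they were -0.02 and 0.03. In 1 fit of all 4 groups, whose comparisons share libraries, the medians of the lists against Tyk2wt were -0.84 and -1.15 in Tyk2fl and -1.64 and -2.21 in Tyk2KO, and those of Tyk2DIEC against Tyk2fl were 0.61 and 0.95. Both medians were thus below 0 against Tyk2wt and above 0 against Tyk2fl.

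Ido1 codes for the enzyme that breaks down tryptophan and is induced by interferon γ. It was at 28.6, 54.3 and 85.2 CPM in Tyk2wt and at 34.9, 25.9, 46.8 and 36.7 CPM in Tyk2DIEC. The Tyk2wt libraries spanned a wider range than the Tyk2DIEC libraries and held all but 1 of their values. The log2 fold change was -0.64 (SE 0.324, 95% interval -1.37 to 0.10, adjusted p = 0.237 from edgeR). Tyk2fl libraries held 2.67 to 20.6 CPM and Tyk2KO libraries 2.28 to 4.62 CPM, all below every Tyk2DIEC value.

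Tap1, a subunit of the transporter that carries peptides to MHC class I, was at 85.8, 93.4 and 131 CPM in Tyk2wt and at 98.9, 102, 88 and 78.8 CPM in Tyk2DIEC (log2 fold change -0.17, SE 0.150, adjusted p = 0.484 from edgeR). The groups overlapped, and Tyk2fl lay at 26.1 to 66.4 CPM and Tyk2KO at 17.9 to 22.5 CPM. Ifit2, an antiviral RNA-binding protein gene, was at 79.3, 78.7 and 124 CPM in Tyk2wt and at 96.2, 74.1, 81 and 94.5 CPM in Tyk2DIEC (log2 fold change -0.13, adjusted p = 0.665). In Tyk2fl it was at 15.7 to 37 CPM and in Tyk2KO at 18.3 to 31.4 CPM. For both genes the highest of the 7 libraries was Tyk2wt replicate 3, and without it their log2 fold changes were 0.03 and 0.125.

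The chemokine gene Cxcl9, which draws T cells, was at 43.5, 27.9 and 57.4 CPM in Tyk2wt and at 52.3, 26.5, 33.3 and 31.3 CPM in Tyk2DIEC (log2 fold change -0.26, adjusted p = 0.571 from edgeR). Cd274, which codes for PD-L1, was at 13.3, 19.8 and 30.2 CPM in Tyk2wt and at 14.5, 13.1, 16.1 and 24.8 CPM in Tyk2DIEC (log2 fold change -0.30, adjusted p = 0.533). The values of these genes were interleaved. H2-Q7, a nonclassical MHC class I gene with close copies among which reads may be split, was at 92.3, 116 and 172 CPM in Tyk2wt and at 85.8, 121, 66.1 and 47.8 CPM in Tyk2DIEC (log2 fold change -0.67, adjusted p = 0.195). Of the other genes of this response that the study names, Ifi44, Ifit1, Ifit3, Oas3, Apol6, Apol9a and Apol10b had log2 fold changes of -0.48, -0.31, -0.25, -0.03, -0.26, -0.23 and -0.14, and none passed the test. Without Tyk2wt replicate 3 the log2 fold changes of Cd274, Ifit3, Oas3, Apol9a and Apol10b were above 0, still without a call.

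Ifi27l2a stood out from the list. This interferon-induced gene was at 9.01, 5.75 and 9.44 CPM in Tyk2wt and at 3.3, 1.89, 1.97 and 2.39 CPM in Tyk2DIEC. Every Tyk2DIEC library lay below every Tyk2wt library, and the log2 fold change was -1.76 (SE 0.250, 95% interval -2.32 to -1.19, adjusted p = 0.0362 from edgeR). Tyk2fl held 3.18 to 6.2 CPM and Tyk2KO 0.324 to 0.348 CPM. The call was lost without any 1 of Tyk2wt replicates 1 and 3 and Tyk2DIEC replicates 2 and 3 (adjusted p = 0.107 to 0.160). Ubd, a ubiquitin-like modifier induced by interferon γ, was at 76.4, 89.3 and 131 CPM in Tyk2wt and at 64.9, 41.8, 54.8 and 52.9 CPM in Tyk2DIEC, without overlap but short of the threshold (log2 fold change -0.89, adjusted p = 0.0545).

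**Figure D2:**
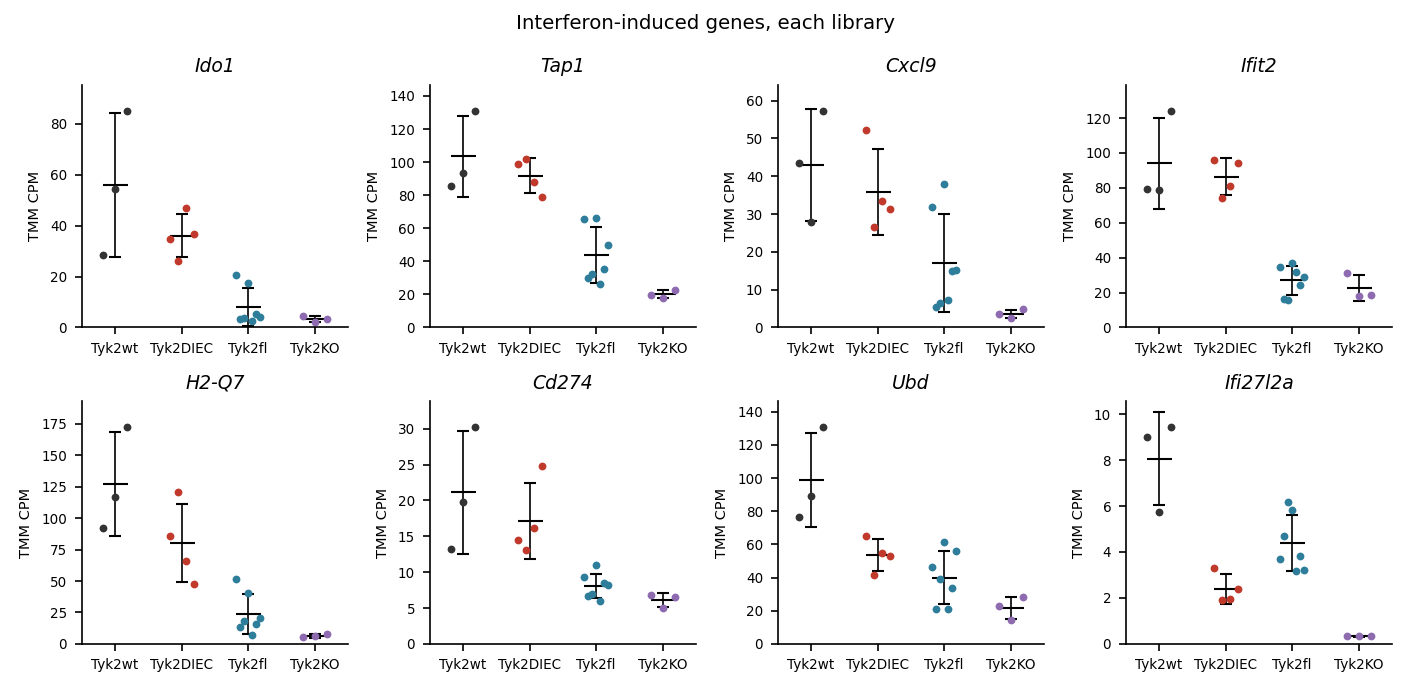
TMM CPM of 8 interferon-induced genes in each of the 17 libraries, by group, with the mean and the SD as bars. For Ido1, Tap1, Cxcl9, Ifit2, H2-Q7 and Cd274 the Tyk2DIEC and Tyk2wt points overlap, with 3 of 4 Tyk2DIEC points of H2-Q7 below all Tyk2wt points, whereas for Ubd and Ifi27l2a every Tyk2DIEC point lies below them.

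Genes that present antigen were mostly below their Tyk2wt level, those of class II by more than those of class I in the median. Of 26 genes of MHC class I presentation 0 were called in edgeR, DESeq2 and limma voom, and 11 had an unadjusted p under 0.05 in edgeR. Of the 26, 25 were below 0, 9 were lower without overlap (12.2% of all genes were), and the median log2 fold change was -0.32. In the model of all groups the median was -0.96 in Tyk2fl and -1.51 in Tyk2KO against Tyk2wt, and 0.55 in Tyk2DIEC against Tyk2fl. Psmb8, a subunit of the immunoproteasome, was at 129, 136 and 195 CPM in Tyk2wt and at 111, 122, 98.2 and 89.4 CPM in Tyk2DIEC (log2 fold change -0.55, adjusted p = 0.0751), and Psme1, of the activator of that proteasome, had a log2 fold change of -0.29 (adjusted p = 0.0537). Psmb8 was chosen after its values were seen. All 12 MHC class II genes were below 0, from -3.03 to -0.32, with a median of -0.67. Groups did not overlap for 10 of 12, where 12.2% of all genes were lower without overlap. H2-Aa alone passed the adjusted p (102 of 16322 genes, 0.625%, passed it as lower). It codes for a chain of the class II molecule and was at 159, 180 and 231 CPM in Tyk2wt and at 120, 122, 107 and 100 CPM in Tyk2DIEC. All Tyk2DIEC libraries lay below all Tyk2wt libraries (log2 fold change -0.76, SE 0.127, adjusted p = 0.0461 from edgeR), less than 2-fold. Its adjusted p was 0.0678 to 0.155 without any 1 of Tyk2wt replicates 1 and 3 and Tyk2DIEC replicates 2 and 3. Of the 12, 11 had an unadjusted p under 0.05 and 0 were called at 2-fold in edgeR and limma voom, but 3 were with DESeq2 and in the model of all groups, and 4 without Tyk2wt replicate 2. The summed level of the class II genes was 1230 to 1770 CPM in Tyk2wt, 847 to 1100 CPM in Tyk2DIEC, 482 to 1010 CPM in Tyk2fl and 489 to 602 CPM in Tyk2KO. These genes are made by B cells and macrophages as well as by epithelium, and lymphocyte markers moved with them, as given next. The part of those cells in the result was not tested.

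Of 29 genes for receptors that use Tyk2 and for Jaks and Stats, 0 were called in edgeR, DESeq2 and limma voom, 10 had an unadjusted p under 0.05 in edgeR, and the median log2 fold change was -0.09. Il10rb, a receptor chain shared by IL-10 and IL-22 and the member with the smallest adjusted p, had a log2 fold change of -0.29 (adjusted p = 0.0675). Of 19 epithelial defence genes that respond to IL-22 0 were called with the same tools and 2 had an unadjusted p under 0.05 in edgeR, with a median of -0.24.

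A few lymphocyte genes were called lower in Tyk2DIEC tumors. In such bulk samples fewer cells of a type and less RNA per cell cannot be told apart. Of 14 B and plasma cell markers tested 2 were called lower, Spib and Cd79b, with a median log2 fold change of -2.05. Of the 14, 10 were lower without overlap, where 12.2% of all genes were. Of 9 markers of CD8 T and NK cells tested 2 were called lower, Klrd1 and Klrk1, and the median was -0.86. Of 20 T cell markers 0 were called at 2-fold in edgeR and limma voom and 3 with DESeq2, 12 had an unadjusted p under 0.05 in edgeR, 9 were lower without overlap, and the median was -0.79. In the model of all groups the medians of Tyk2fl against Tyk2wt were -1.97 for the B and plasma cell list and -1.17 for the CD8 T and NK cell list, so Tyk2fl tumors were also low there. Of these 2 lists DESeq2 called 10 and 3 genes lower and limma voom 0 and 0. For the T cell list that median was -0.35. T cell markers summed to 64.8 to 101 CPM in Tyk2fl, 79.5 to 91.7 CPM in Tyk2wt and 53.9 to 71.2 CPM in Tyk2DIEC.

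The B cell genes were uneven in Tyk2wt. Spib, a transcription factor of B cells, was at 1.15, 9.6 and 13.5 CPM in Tyk2wt and at 0.765, 0.256, 0.337 and 0.406 CPM in Tyk2DIEC (log2 fold change -4.17, SE 0.758, adjusted p = 0.0461 from edgeR). Cd79b, a signalling chain of the B cell receptor, was at 3.55, 1.49 and 11.5 CPM in Tyk2wt and at 0.622, 0.256, 0.482 and 0.711 CPM in Tyk2DIEC (log2 fold change -3.40, SE 0.670, adjusted p = 0.0494). The groups did not overlap, although 1 Tyk2wt library came close for each gene. Both calls were lost without Tyk2wt replicate 3 or any of Tyk2DIEC replicates 1, 2 and 3, and that of Cd79b also without Tyk2wt replicate 1 (adjusted p = 0.053 to 0.179 in all). The number of the list called was 5 without Tyk2DIEC replicate 1, with a median of -3.46, and 12 of 19 tested without Tyk2wt replicate 2, and it was 0 without Tyk2wt replicate 3 or Tyk2DIEC replicate 2 or 3.

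Plasma cell transcripts varied by library within Tyk2DIEC. Jchain, the joining chain of secreted IgA and chosen after its values were seen, was at 264, 250 and 207 CPM in Tyk2wt and at 157, 18.4, 5.2 and 68.5 CPM in Tyk2DIEC. The groups did not overlap, but the Tyk2DIEC values ranged so widely that the log2 fold change of -1.95 (SE 0.834) had an adjusted p = 0.171 from edgeR. Immunoglobulin genes took 0.113%, 0.184% and 0.139% of the counts of the Tyk2wt libraries and 0.120%, 0.0163%, 0.00359% and 0.0201% of those of Tyk2DIEC replicates 1 to 4. Replicate 1, which stood apart above, was thus at the Tyk2wt level. Of 83 immunoglobulin genes and segments tested 82 were below 0, where 8247 of all 16322 genes were, with a median of -2.11. Called lower were 13 variable segments (0.165% of all genes were called lower). A segment with enough counts in Tyk2wt alone passed the low-count filter, so these numbers are partly set by the filter. Variable segments have near-identical copies between which reads may be split, and 1 clone of plasma cells can carry 1 segment, so single segments are uncertain. Ighv1-63, for example, had 31, 502 and 109 counts in Tyk2wt and 0, 2, 0 and 0 in Tyk2DIEC, and its call was lost without Tyk2wt replicate 3 or Tyk2DIEC replicate 1, 2 or 3 (adjusted p = 0.0539 to 0.142 from edgeR). The summed level of the B and plasma cell markers was 1910 to 2440 CPM in Tyk2wt, 684 to 1720 CPM in Tyk2DIEC and 903 to 1960 CPM in Tyk2fl.

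The NK and T cell genes named here were more even. Of the 9 CD8 T and NK cell markers 4 were lower without overlap (12.2% of all genes were), and with a minimum count of 50 only 1 was tested. Klrd1 (CD94), a receptor of NK and CD8 T cells, was at 2.11, 2.05 and 2.02 CPM in Tyk2wt and at 1.05, 0.613, 0.915 and 0.61 CPM in Tyk2DIEC (log2 fold change -1.36, SE 0.251, adjusted p = 0.0461 from edgeR). Klrk1 (NKG2D), an activating receptor of the same cells, was at 1.01, 1.44 and 1.97 CPM in Tyk2wt and at 0.383, 0.306, 0.337 and 0.61 CPM in Tyk2DIEC (log2 fold change -1.84, SE 0.340, adjusted p = 0.0461). Neither gene overlapped between the groups, and both calls were lost without any 1 of Tyk2wt replicates 1 and 3 and Tyk2DIEC replicates 2 and 3, that of Klrk1 also without Tyk2DIEC replicate 1 (adjusted p = 0.0572 to 0.179 in all). Trac, the constant part of the T cell receptor α chain, was at 9.73, 6.72 and 9.97 CPM in Tyk2wt and at 4.3, 5.01, 4.82 and 3.76 CPM in Tyk2DIEC, just under 2-fold lower (log2 fold change -0.98, adjusted p = 0.0461, and as much as 0.179 without Tyk2wt replicate 1 or 3 or Tyk2DIEC replicate 1, 2 or 3). The summed level of the CD8 T and NK cell markers was 14.3 to 23.4 CPM in Tyk2wt, 8.72 to 11.2 CPM in Tyk2DIEC, 6.27 to 11.7 CPM in Tyk2fl and 4.92 to 5.92 CPM in Tyk2KO, and no marker of either lymphocyte list was at 0 in all 7 libraries.

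Other called genes are known from lymphocytes as well. Cd52, a surface glycoprotein of lymphocytes and monocytes, was at 27.6, 17.2 and 31.6 CPM in Tyk2wt and at 14.1, 10.1, 9.58 and 9.14 CPM in Tyk2DIEC (log2 fold change -1.25, adjusted p = 0.0461 from edgeR). Tnfrsf13b, the TACI receptor of B cells, had a log2 fold change of -1.37 (adjusted p = 0.0494), Gimap7, a GTPase of lymphocytes, one of -1.89 (adjusted p = 0.0461) and Skap1, an adaptor of T cells, one of -1.75 (adjusted p = 0.0494). None overlapped between the groups, with 0.873 to 1.30 CPM of Skap1 in Tyk2wt and 0.241 to 0.526 CPM in Tyk2DIEC. All 4 calls were lost without any 1 of Tyk2wt replicates 1 and 3 and Tyk2DIEC replicates 2 and 3, those of Tnfrsf13b and Skap1 also without Tyk2DIEC replicate 4 (adjusted p = 0.0510 to 0.182). Gimap7 and Skap1 are outside the rule for naming and were chosen after their values were seen.

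**Figure D3:**
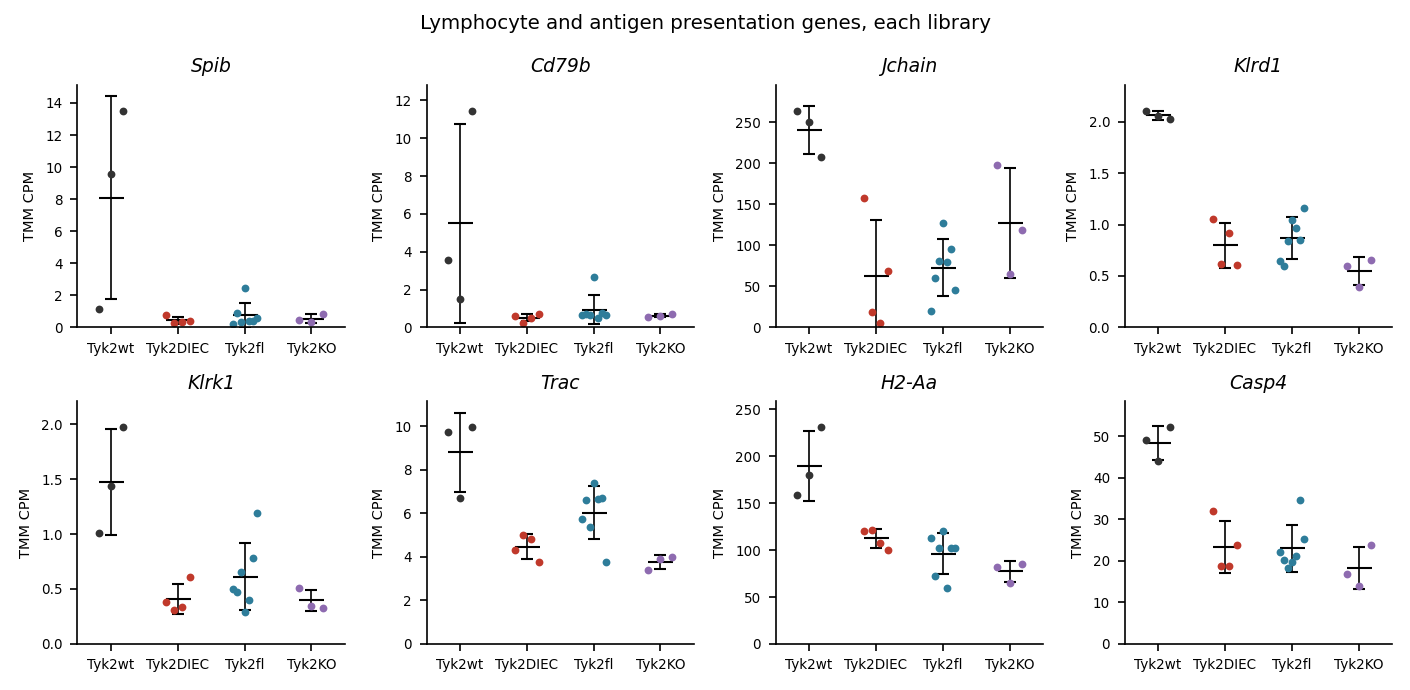
TMM CPM of 8 genes lower in Tyk2DIEC tumors in each of the 17 libraries, by group, with the mean and the SD as bars, which are not drawn below 0. All Tyk2DIEC points lie below all Tyk2wt points in each panel, and the Tyk2fl points overlap the Tyk2DIEC points in each panel.

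Lists of other white cells held 0 called genes in edgeR. Of 20 macrophage and monocyte markers 0 were called in edgeR and limma voom and 1 with DESeq2, 8 had an unadjusted p under 0.05 in edgeR, and the median was -0.31. Aif1, a macrophage gene, passed the adjusted p with less than 2-fold (17, 14.8 and 15 CPM in Tyk2wt, 11.1, 8.74, 8.23 and 6.71 CPM in Tyk2DIEC, log2 fold change -0.85, adjusted p = 0.049). Cma1, a protease of mast cells, did as well (log2 fold change -0.88, adjusted p = 0.0494), among 12 mast cell and eosinophil markers with a median of -0.75, which was -0.14 without Tyk2wt replicate 1 and -0.45 without Tyk2DIEC replicate 3. Without 1 library the adjusted p of both rose to as much as 0.179. The medians of 16 neutrophil and 10 dendritic cell markers were -0.39 and -0.58. In edgeR 0 of their members passed the adjusted p and 8 and 5 had an unadjusted p under 0.05, DESeq2 called 1 dendritic cell marker and limma voom 0, and in edgeR 1 dendritic cell marker was called without Tyk2DIEC replicate 1 and 1 neutrophil marker without Tyk2DIEC replicate 1 or 4. Ccl7, a chemokine for monocytes that the study names, was at 8.01, 10.7 and 8.28 CPM in Tyk2wt, 6.6, 7.36, 6.5 and 4.27 CPM in Tyk2DIEC and 6.35 to 19.6 CPM in Tyk2fl. It did not overlap between Tyk2wt and Tyk2DIEC but missed the threshold (log2 fold change -0.54, SE 0.199, adjusted p = 0.125).

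Casp4 (caspase-11), which senses bacterial lipopolysaccharide within cells, was at 49.1, 44 and 52.2 CPM in Tyk2wt and at 32, 18.6, 18.8 and 23.7 CPM in Tyk2DIEC. The groups did not overlap, and the log2 fold change was -1.06 (SE 0.181, 95% interval -1.47 to -0.65, adjusted p = 0.0461 from edgeR). Tyk2fl libraries spanned the Tyk2DIEC range, at 18.2 to 34.8 CPM. Fosb, an AP-1 transcription factor induced soon after a stimulus, was at 16.1, 26.6 and 25.4 CPM in Tyk2wt, 7.84, 7.36, 8.67 and 11.7 CPM in Tyk2DIEC and 3.4 to 10.6 CPM in Tyk2fl (log2 fold change -1.35, SE 0.209, adjusted p = 0.0377). It was the 1 called member of 25 immediate-early and stress genes, whose median was -0.12. Medag, a gene of fat cell formation, was at 9.35, 8.62 and 9.15 CPM in Tyk2wt and at 4.83, 3.17, 3.9 and 4.93 CPM in Tyk2DIEC (log2 fold change -1.11, SE 0.170, adjusted p = 0.0377), while Tyk2fl held 7.89 to 18.8 CPM. Medag was therefore low in Tyk2DIEC beside Tyk2fl too, unlike Casp4 and Fosb, whose ranges in Tyk2fl overlapped those of Tyk2DIEC. The 3 calls were lost without Tyk2wt replicate 3 or Tyk2DIEC replicate 2 or 3, those of Casp4 and Medag also without Tyk2wt replicate 1 (adjusted p = 0.0928 to 0.179).

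Some genes of the circadian clock were higher in Tyk2DIEC tumors. In the clock, CLOCK and BMAL1 (Arntl) bind E-boxes and switch on the Per and Cry genes, whose proteins repress them, and the factors DBP and TEF act through D-boxes. Of 19 clock genes tested 2, Per2 and Per3, were called higher, and 5 passed the adjusted p as higher where 0.95% of all genes did. Values were higher without overlap for 6 (12.3% of all genes) and lower without overlap for 1, 5 genes were below 0, and the median log2 fold change was 0.36. In the model of all groups the median was -0.13 in Tyk2fl against Tyk2wt and 0.25 in Tyk2DIEC against Tyk2fl. The number called was 1 without Tyk2DIEC replicate 1 or 2 and 0 without Tyk2wt replicate 1, Tyk2wt replicate 3 or Tyk2DIEC replicate 3.

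Per2, a repressor of the clock, was at 15.3, 19 and 17.3 CPM in Tyk2wt and at 49.7, 33.3, 35.1 and 33.4 CPM in Tyk2DIEC. All 4 Tyk2DIEC libraries lay above every library of the other groups, with 11.1 to 17.9 CPM in Tyk2fl and 22.1 to 24.4 CPM in Tyk2KO. The log2 fold change was 1.14 (SE 0.160, adjusted p = 0.0362 from edgeR). Without Tyk2DIEC replicate 1, the highest, the gene passed the adjusted p of 0.0122 but not the fold minimum (log2 fold change 0.97), and without Tyk2wt replicate 1 or 3 or Tyk2DIEC replicate 2 or 3 it missed the threshold (adjusted p up to 0.165).

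Per3, another repressor, was at 12, 13 and 14.9 CPM in Tyk2wt and at 33.3, 26, 30.2 and 25 CPM in Tyk2DIEC (log2 fold change 1.10, SE 0.129, adjusted p = 0.0156 from edgeR). Tyk2fl held 9.36 to 15.9 CPM and Tyk2KO 20.1 to 25.9 CPM, so Tyk2KO reached the lowest Tyk2DIEC library. Its call was lost without Tyk2wt replicate 1 or 3 or Tyk2DIEC replicate 3 (adjusted p = 0.0678 to 0.0751). Tef and Dbp, chosen after their values were seen, passed the adjusted p with slightly under 2-fold. Tef was at 27.8, 31.7 and 35.4 CPM in Tyk2wt and at 69.7, 61.9, 64 and 53.9 CPM in Tyk2DIEC (log2 fold change 0.98, SE 0.110, adjusted p = 0.0156), against 24.2 to 34.7 CPM in Tyk2fl. Dbp was at 4.65, 5.6 and 5.2 CPM in Tyk2wt and at 10.5, 8.89, 9.34 and 9.4 CPM in Tyk2DIEC (log2 fold change 0.89, SE 0.126, adjusted p = 0.0362). In both genes every Tyk2DIEC library lay above every Tyk2wt library. Without Tyk2wt replicate 1 or 3 or Tyk2DIEC replicate 3 the adjusted p was 0.0606 to 0.0672 for Tef and 0.104 to 0.160 for Dbp, and that of Dbp was 0.0929 without Tyk2DIEC replicate 2. Per1 had a log2 fold change of 0.36 (adjusted p = 0.0494), and Arntl, which peaks in opposite phase to the Per genes, one of -0.29 (adjusted p = 0.137). Both were chosen after their values were seen. The summed level of the 19 genes was 893 to 936 CPM in Tyk2DIEC, 737 to 835 CPM in Tyk2wt, 680 to 784 CPM in Tyk2fl and 741 to 777 CPM in Tyk2KO.

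The promoters of Per3 and Tef are shown as examples of D-boxes and E-boxes. They were picked because they hold these boxes and so support no link between the boxes and the changes. Of 10 called list members 5 had an entry among the RefSeq promoters (GRCm38.p6, 250 bases before to 50 after the start, 6 windows). The sequences below are the 250 bases before the start, 5′ to 3′ on the gene's strand. Capitals mark the D-box TTATGTAA in Per3 and the E-box CACGTG in Tef, searched on both strands.
Per3, chr4:151044666-151044915, minus strand: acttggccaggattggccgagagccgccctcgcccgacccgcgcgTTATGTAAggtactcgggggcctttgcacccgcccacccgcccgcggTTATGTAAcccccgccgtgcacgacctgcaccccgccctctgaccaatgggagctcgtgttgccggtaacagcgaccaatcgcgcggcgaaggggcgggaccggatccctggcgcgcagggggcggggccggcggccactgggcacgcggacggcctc
Tef, chr15:81802423-81802672, plus strand, upstream start: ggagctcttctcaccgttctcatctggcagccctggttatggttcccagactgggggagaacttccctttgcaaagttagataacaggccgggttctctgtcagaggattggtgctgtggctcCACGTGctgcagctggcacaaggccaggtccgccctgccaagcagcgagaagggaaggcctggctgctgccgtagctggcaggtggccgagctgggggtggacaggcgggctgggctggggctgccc
Tef, chr15:81811164-81811413, plus strand, downstream start: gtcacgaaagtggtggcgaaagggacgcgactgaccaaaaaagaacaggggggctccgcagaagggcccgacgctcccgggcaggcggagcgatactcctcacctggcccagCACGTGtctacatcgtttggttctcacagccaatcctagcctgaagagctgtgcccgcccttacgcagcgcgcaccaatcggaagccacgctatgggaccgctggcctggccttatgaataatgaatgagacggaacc
The D-boxes of Per3 begin 205 and 158 bases before the start, and 0.938% of 32851 promoters hold one. The E-box of Tef begins 127 and 138 bases before its starts, and 7.15% of promoters hold one. In the 6 windows of called list members the D-box was in 1, that of Per3, and the E-box in 0. The core of the interferon-stimulated response element, the STAT motif TTCNNNGAA and the cyclic AMP response element TGACGTCA, held by 3.44%, 8.30% and 1.79% of promoters, were also in 0 of the 6. Of the clock genes that were not called, Dbp and Per1 each held the STAT motif in a window, and Per1 and Ciart held E-boxes. The AP-1 motif TGANTCA (7.81% of promoters) was in 1, that of Klrk1. A match is a description of these letters and shows no binding.

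**Figure D4:**
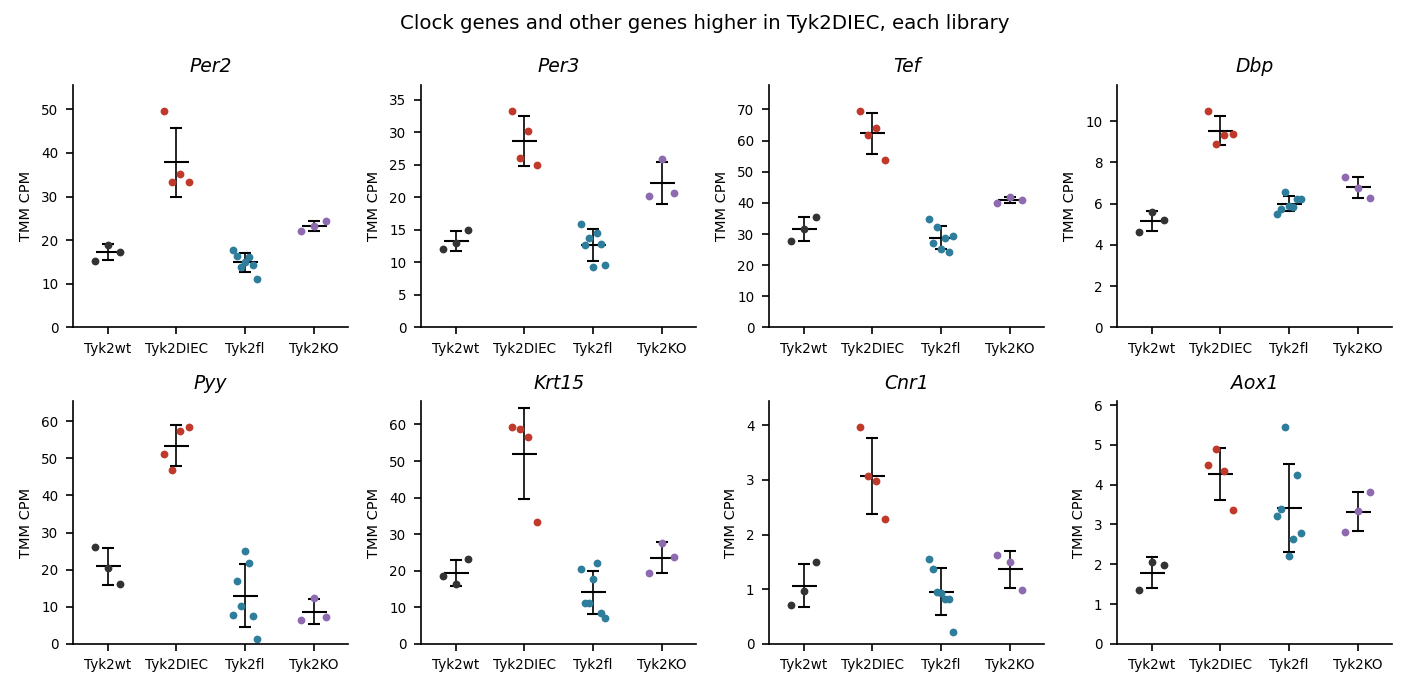
TMM CPM of 4 clock genes and of Pyy, Krt15, Cnr1 and Aox1 in each of the 17 libraries, by group, with the mean and the SD as bars. All Tyk2DIEC points lie above all Tyk2wt points in each panel, and for the genes other than Aox1 also above all Tyk2fl points.

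Pyy codes for peptide YY, a hormone that enteroendocrine L cells release after meals. It was at 26.1, 20.5 and 16.1 CPM in Tyk2wt and at 51.1, 46.8, 57.4 and 58.4 CPM in Tyk2DIEC, without overlap. The log2 fold change was 1.35 (SE 0.157, 95% interval 0.99 to 1.71, adjusted p = 0.0156 from edgeR), with 1.44 to 25 CPM in Tyk2fl and 6.52 to 12.5 CPM in Tyk2KO. The call was lost without Tyk2wt replicate 3 (adjusted p = 0.0629) or Tyk2DIEC replicate 3 (adjusted p = 0.0672). Pyy was the 1 called member of 11 enteroendocrine markers tested, of which 7 were below 0, and their median was -0.25, which was 0.16 without Tyk2wt replicate 2 and -0.50 without Tyk2DIEC replicate 1.

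Krt15, a keratin of basal cells in stratified epithelium, was at 18.7, 16.3 and 23.3 CPM in Tyk2wt and at 59.3, 58.8, 56.6 and 33.4 CPM in Tyk2DIEC. The lowest Tyk2DIEC library lay above all Tyk2wt libraries and above the 7.2 to 22.2 CPM of Tyk2fl. The log2 fold change was 1.42 (SE 0.215, 95% interval 0.93 to 1.91, adjusted p = 0.0371 from edgeR), and the call was lost without Tyk2wt replicate 1 or 3 or Tyk2DIEC replicate 2 or 3 (adjusted p = 0.116 to 0.133). It was the 1 called of 18 genes of stratified squamous epithelium, whose median was 0.44 and whose summed level overlapped, at 175 to 364 CPM in Tyk2wt and 174 to 499 CPM in Tyk2DIEC.

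Cnr1, the cannabinoid receptor of nerve cells, was at 0.719, 0.975 and 1.49 CPM in Tyk2wt and at 3.97, 3.06, 2.99 and 2.29 CPM in Tyk2DIEC (log2 fold change 1.53, SE 0.300, adjusted p = 0.0494 from edgeR). The highest value was that of Tyk2DIEC replicate 1, where markers of enteric neurons and glia also summed to 80.1 CPM against 23.9 to 46.7 CPM in the other 6 libraries, and their part in Cnr1 was not tested. Without that library the adjusted p of Cnr1 was over the threshold, as it was without any Tyk2wt library or Tyk2DIEC replicate 2 or 3 (0.0526 to 0.155). Aox1, an aldehyde oxidase, was at 1.34, 2.05 and 1.97 CPM in Tyk2wt and at 4.5, 4.91, 4.33 and 3.35 CPM in Tyk2DIEC (log2 fold change 1.25, SE 0.219, adjusted p = 0.0461), and at 2.21 to 5.45 CPM in Tyk2fl. Its call was lost without Tyk2wt replicate 1 or 3 or Tyk2DIEC replicate 1, 2 or 3 (adjusted p = 0.0521 to 0.179).

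Pkd1l1, a gene of the polycystin family that the study names, had 3, 2 and 1 counts in Tyk2wt and 44, 12, 38 and 25 in Tyk2DIEC. All Tyk2DIEC libraries were above all Tyk2wt libraries, and the summed CPM were 14.98 times as high (exact 95% interval 6.68 to 41.6, counting error alone). The adjusted p was 0.0377 from edgeR, and 0.109 to 0.179 without Tyk2wt replicate 1 or 3 or Tyk2DIEC replicate 3. Tyk2fl held 0.114 to 1.39 CPM and Tyk2KO 0.416 to 0.844 CPM, so the Tyk2wt libraries were near the bottom of all groups. Pde11a and Mmp7, which the study also names, had log2 fold changes of 0.72 and -0.22 and were not called (adjusted p = 0.328 and 0.501).

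Several of the genes highest in Tyk2DIEC lay beside others that were higher too. These neighbourhoods were chosen after the values were seen, and a neighbour is a gene of which any part lies within 500 kb. Aox1, Per2, Per3 and Cnr1, also called higher, had no neighbour that passed the adjusted p. Myo18b (ENSMUSG00000072720.9, chr5:112688876-112896362), an unconventional myosin of striated muscle, was at 0.384, 0.359 and 0.481 CPM in Tyk2wt and at 7.84, 7.97, 9.54 and 7.47 CPM in Tyk2DIEC. In Tyk2fl it was at 0.139 to 0.509 CPM and in Tyk2KO at 0.199 to 0.235 CPM, so the 4 Tyk2DIEC libraries stood above the other 13. The log2 fold change was 4.30 (SE 0.201, 95% interval 3.85 to 4.76, adjusted p = 6.86e-05 from edgeR), and the gene stayed called in all 18 alternatives, with log2 fold changes of 4.22 to 4.44. Of 13 genes tested in its neighbourhood, itself included, 12 were above 0, 8 were without overlap between the groups and 4 passed the adjusted p. Of all genes 24.5% were without overlap and 1.57% passed the adjusted p. Miat, a long noncoding RNA, was at 6.76 to 9.14 CPM in Tyk2wt, 14 to 23.1 CPM in Tyk2DIEC and 1.66 to 18.9 CPM in Tyk2fl (log2 fold change 1.24, adjusted p = 0.0368). Tfip11, a splicing factor, was at 42.3 to 49.4 CPM in Tyk2wt, 71.1 to 81.1 CPM in Tyk2DIEC and 42.1 to 49.1 CPM in Tyk2fl (log2 fold change 0.70, SE 0.0725, adjusted p = 0.0116). Hps4, of the protein complexes that build lysosome-related organelles, had a log2 fold change of 0.68 (adjusted p = 0.0133). The genes that passed lie on 1 side of Myo18b, from chr5:112213228 to its end, and Grk3 on the other side had a log2 fold change of 0.04. The call of Miat was lost without Tyk2wt replicate 1 or 3 or Tyk2DIEC replicate 2 or 3 (adjusted p = 0.0954 to 0.170), and without Tyk2wt replicate 3 the adjusted p of Tfip11 was 0.0787 and that of Hps4 0.0942, the latter 0.0629 without Tyk2DIEC replicate 3.

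On chromosome X, 3 adjacent genes were higher. Porcn, the enzyme that attaches a fatty acid to Wnt ligands so that they can be secreted, was at 3.07, 4.16 and 3.61 CPM in Tyk2wt and at 9.42, 10.7, 9.68 and 8.43 CPM in Tyk2DIEC (log2 fold change 1.40, SE 0.153, adjusted p = 0.0133 from edgeR). Tbc1d25, a regulator of Rab GTPases, was at 10.7, 14.1 and 13 CPM in Tyk2wt and at 25.3, 28.4, 30.3 and 26.6 CPM in Tyk2DIEC (log2 fold change 1.13, SE 0.113, adjusted p = 0.0109). Ebp, a sterol isomerase of cholesterol synthesis, was at 63.5, 63 and 63.8 CPM in Tyk2wt and at 108, 114, 100 and 112 CPM in Tyk2DIEC (log2 fold change 0.77, SE 0.0595, adjusted p = 0.00303). For all 3 the groups lay far apart beside their own spread. Tyk2fl libraries overlapped the Tyk2DIEC range for Porcn and Tbc1d25, at 7.5 to 10.4 and 18 to 30 CPM, and lay above it for Ebp, at 119 to 168 CPM, and Tyk2KO libraries were at 4.57 to 5.45, 12.8 to 15.5 and 63.1 to 78.4 CPM. In all 3 genes every library of both floxed groups lay above every Tyk2wt library. The genes span chrX:8154472-8206525. Of 25 genes tested within 500 kb of Porcn, itself included, these 3 alone passed the adjusted p (1.57% of all genes did). Ftsj1, on the other side of Porcn, had a log2 fold change of 0.06. Without Tyk2wt replicate 3 the calls of Porcn and Tbc1d25 were lost and the adjusted p of Ebp was 0.0510, and that of Porcn also without Tyk2wt replicate 1 or Tyk2DIEC replicate 3 (adjusted p = 0.0507 to 0.0942).

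Elsewhere on chromosome X, Mid1, a microtubule-associated ubiquitin ligase, was at 4.41, 5.96 and 5.87 CPM in Tyk2wt and at 9.95, 14.8, 13.6 and 11.7 CPM in Tyk2DIEC (log2 fold change 1.21, SE 0.176, adjusted p = 0.0365 from edgeR). Tyk2fl held 4.07 to 7.28 CPM and Tyk2KO 4.79 to 5.26 CPM. Its neighbour Hccs, which attaches heme to cytochrome c, was at 38.7, 35.6 and 39.2 CPM in Tyk2wt and at 62.7, 59.7, 64.8 and 68.6 CPM in Tyk2DIEC (log2 fold change 0.75, SE 0.0677, adjusted p = 0.00670). Neither gene overlapped between the groups, and of 6 genes tested there, Mid1 included, these 2 passed the adjusted p (1.57% of all genes did). The call of Mid1 was lost without Tyk2wt replicate 1 or 3 or Tyk2DIEC replicate 2 or 3 (adjusted p = 0.101 to 0.155), and without Tyk2wt replicate 3 the adjusted p of Hccs was 0.0606.

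**Figure D5:**
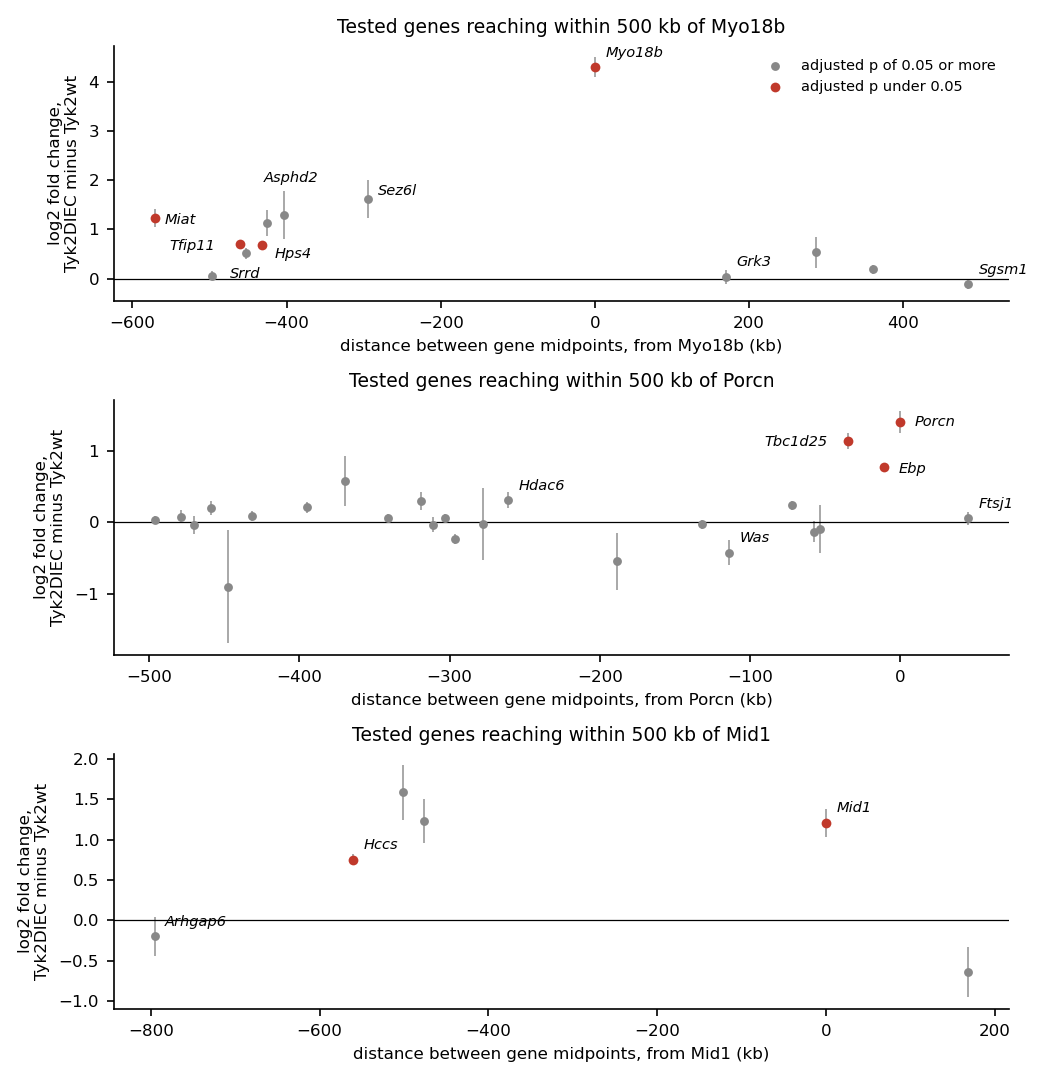
Log2 fold changes, Tyk2DIEC minus Tyk2wt, with their SE as bars, of tested genes of which any part lies within 500 kb of Myo18b, Porcn or Mid1, against the distance between gene midpoints in kb. Red points passed the adjusted p, 4 of 13 around Myo18b, 3 of 25 around Porcn and 2 of 6 around Mid1. Each count includes the named gene, and 1.57% of all genes passed.

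Noncoding genes and pseudogenes were also among the called genes. The long intergenic RNA Gm42031 (ENSMUSG00000110386.1) had 1, 2 and 1 counts in Tyk2wt and 516, 416, 476 and 403 in Tyk2DIEC, a ratio of 342 after scaling (exact 95% interval 133 to 1256, counting error alone). Tyk2wt was the group near 0, since Tyk2fl held 3.31 to 37.9 CPM and Tyk2KO, its own littermates, 8.98 to 23 CPM. The call held in all 18 alternatives (adjusted p = 1.05e-06 from edgeR), and of 37 genes tested within 500 kb, itself included, no other passed the adjusted p. Cbx3-ps2, a processed pseudogene whose reads may come from its parent gene or copies, had 0 counts in every Tyk2wt library and 42, 18, 35 and 25 in Tyk2DIEC. Against a floor of 3 counts per library (0.154 CPM) its mean was at least 9.55-fold higher. It too was present in the other groups, at 0.407 to 2.31 CPM in Tyk2fl and 0.993 to 1.27 CPM in Tyk2KO. Tmem181b-ps, a transcribed pseudogene, was at 7.57, 10.7 and 9.53 CPM in Tyk2wt, 27.3, 21.9, 20.7 and 18.2 CPM in Tyk2DIEC, 13.7 to 25.6 CPM in Tyk2fl and 9.9 to 13.7 CPM in Tyk2KO (log2 fold change 1.25, adjusted p = 0.0314). All 3 are outside the rule for naming and were chosen after their values were seen. The calls of both pseudogenes were lost without Tyk2wt replicate 1 or 3 or Tyk2DIEC replicate 3, that of Tmem181b-ps also without Tyk2DIEC replicate 2 (adjusted p = 0.0678 to 0.155).

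The epithelial and cell division lists given here held 0 called genes in edgeR, while Paneth-like and regenerative fetal-like genes leaned low. Of 25 Wnt target and stem cell genes 0 were called in edgeR, DESeq2 and limma voom, and 7 had an unadjusted p under 0.05 in edgeR. Higher without overlap were 5 (12.3% of all genes were), and the median was 0.12. Rnf43, a negative regulator of Wnt receptors, was at 290, 298 and 274 CPM in Tyk2wt and at 337, 370, 406 and 349 CPM in Tyk2DIEC, short of the threshold (log2 fold change 0.34, SE 0.0770, adjusted p = 0.0549). Of 18 regenerative fetal-like genes 0 were called with these tools and 8 had an unadjusted p under 0.05 in edgeR. Of the 18, 16 were below 0 and 4 were lower without overlap (12.2% of all genes), with a median of -0.32. Ereg, a ligand of the EGF receptor, was at 39, 38.2 and 39.8 CPM in Tyk2wt and at 15.5, 27.6, 24.8 and 23.6 CPM in Tyk2DIEC, also short of it (log2 fold change -0.77, SE 0.162, adjusted p = 0.0537), and at 19 to 53.4 CPM in Tyk2fl. Of 26 cell division genes Tyms, the thymidylate synthase, passed the adjusted p with a small change (log2 fold change -0.38, adjusted p = 0.049, and as much as 0.179 without 1 library), and the median was -0.13. The medians of 15 goblet cell markers and 24 colonocyte genes were -0.12 and -0.10, and that of 15 Paneth-like genes -0.62. In edgeR these lists held 0 called genes and 5, 3 and 7 with an unadjusted p under 0.05, and DESeq2 called 1 Paneth-like gene. Of the 15 Paneth-like genes 13 were below 0 and 5 were lower without overlap (12.2% of all genes). The goblet cell median was -0.0099 without Tyk2DIEC replicate 2 and -0.46 without Tyk2DIEC replicate 4, and the colonocyte median was -0.52 without Tyk2DIEC replicate 4 and changed sign without Tyk2wt replicate 2 or Tyk2DIEC replicate 2 or 3.

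Stromal lists held 0 called genes in edgeR and limma voom, and DESeq2 called 2 fibroblast and matrix genes. Of 18 endothelial markers 9 had an unadjusted p under 0.05 in edgeR and 5 were higher without overlap (12.3% of all genes were). Their median was 0.42, and they summed to 646 to 829 CPM in Tyk2wt and 797 to 915 CPM in Tyk2DIEC. All 16 smooth muscle markers were above 0 with a median of 0.31 and 2 had an unadjusted p under 0.05, whereas without Tyk2DIEC replicate 1 the median was -1.09 and 5 of 15 were called lower. The 20 fibroblast and matrix genes had a median of 0.05, which changed sign in 3 fits that left out a library. Dpt, a matrix protein gene, was at 20.1, 26 and 29.1 CPM in Tyk2wt and at 17, 13, 9.25 and 9.76 CPM in Tyk2DIEC, short of the threshold (log2 fold change -1.03, adjusted p = 0.0538).

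Ribosomal protein genes and, by less, nuclear genes of oxidative phosphorylation leaned low. All 42 cytosolic ribosomal protein genes were below 0, with a median of -0.41, and 22 were so without overlap. Of all genes 12.2% were lower without overlap. All 42 had an unadjusted p under 0.05 in edgeR, where 27.8% of all genes did, and 0 passed the adjusted p in edgeR or were called by DESeq2 or limma voom. Of 27 nuclear genes of oxidative phosphorylation 12 were lower without overlap and 15 had an unadjusted p under 0.05 (median -0.20). The 16313 tested genes with a known length were divided into 5 bins of nearly equal number by the summed length of their annotated exons, overlaps merged. The median was -0.15 in the shortest bin (56 to 2074 bp) and 0.09 in the longest (7086 to 123179 bp). The part of exon length in these lists was not tested. The summed level of the ribosomal protein genes was 21500 to 30200 CPM in Tyk2wt, 19400 to 21700 CPM in Tyk2DIEC and 21400 to 30700 CPM in Tyk2fl, with Tyk2wt replicate 2 the lowest of its group.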

How the data were processed

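Raw gene counts of 17 poly(A)-selected, directional, single-end libraries (75 bases) were used as deposited. The authors aligned reads with STAR 2.6.1a, which counted them per gene of Gencode release 23, and neither normalized nor filtered the deposited counts. The build is printed as GRCh38 in the methods and as GRCm38 in the submitters' processing notes. The 2 experiment tables were joined on gene identifier (55421 genes), and positions came from GENCODE release 21 (GRCm38), which matched 55240 identifiers without their version. Genes were filtered with filterByExpr (counts of at least 10, in all at least 15), TMM factors were computed, and the 7 libraries were fitted with edgeR 4.0.16 in R 4.3.3. A gene was called at a Benjamini-Hochberg adjusted p under 0.05 and over 2-fold. The authors used DESeq2. Depth was 19129696 to 21318077 counts per library in the 7 libraries compared, 19922606 to 21707373 in Tyk2KO and 29777763 to 35427965 in Tyk2fl. Intervals of counts cover counting error alone. Named genes were Tyk2, genes the study names, the 10 largest protein-coding changes in each direction without overlap at a mean of at least 1 CPM, up to 3 called members of each of 35 lists or else the member with the smallest adjusted p, and Xist and Ddx3y. Genes outside it are said to be chosen after their values were seen. Members, lists and tests were chosen with earlier results of these data known, and lists share genes with tables of the study, so they are described by counts and medians and not tested. Alternatives were DESeq2 1.42.0, limma 3.58.1 (voom), other scalings and filters, all 17 libraries in 1 fit, a replicate block, no fold minimum, a test against 1.5-fold, leaving out gene classes and each library, and other gene choices for the principal components. The steps were tested on simulated data. Reads per exon were not analysed here. Values of some genes were left out.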

Additional observations from a re-analysis of the deposited data

Results flagged for a closer look

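Among 68 genes and 35 lists looked at in the 4 Tyk2DIEC libraries, 5 had 1 library far from the other 3 by Dixon's criterion (its gap to the nearest over the range), which chance gives in about 1 of 20 groups. Krt15 was at 33.4 CPM in Tyk2DIEC replicate 4 and at 56.6 to 59.3 CPM in the others. Per2 was at 49.7 CPM in Tyk2DIEC replicate 1 and at 33.3 to 35.1 CPM in the others. Il10rb was at 53.7 CPM in Tyk2DIEC replicate 4 and at 43.9 to 45.3 CPM in the others. The mean log2 CPM of smooth muscle markers was 6.09 in Tyk2DIEC replicate 1 and 3.57 to 3.80 in the others. That of enteric neuron and glia markers was 2.63 in the same library and 1.05 to 1.17 in the others.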

How the results depend on the processing

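Of the results for genes named by the rule, 1047 kept direction and side of the threshold, 139 lost and 17 gained the threshold and 11 changed sign over all alternatives, and the cause was not tested. Higher and lower genes numbered 33 and 88 without a low-count filter, 19 and 10 with a minimum count of 50, 18 and 50 with all 17 libraries, 2 and 0 against 1.5-fold, 15 and 11 without ribosomal, mitochondrial, immunoglobulin and pseudogene rows, 41 and 78 with DESeq2, 11 and 10 with limma voom, and 155 and 102 without a fold minimum, which called 1 gene within 5 Mb of Tyk2. Lists with a called member, 7 of 35, numbered 12 without the filter, 0 against 1.5-fold, 13 with DESeq2, 3 with limma voom and 12 without a fold minimum. Leaving out 1 library gave 2 to 41 higher and 0 to 85 lower genes, 0 to 11 lists and 0 to 1 gene near Tyk2. With the replicate number as a block there were 2 higher and 1 lower genes and 0 lists with a called member, but deviations of same-numbered libraries correlated at 0.0777, -0.0728 and 0.118, so the numbers did not pair the libraries. On the first principal component 3 Tyk2DIEC libraries lay above the Tyk2wt range, and 4 with 2000 genes. With protein-coding genes alone Tyk2DIEC replicate 1 was at -20.39, below the Tyk2wt range of -10.24 to -0.2477. Replicates 2, 3 and 4 then lay above that range, at 17.3, 19.34 and 3.589. No called gene changed sign. Leaving out 1 library at a time, the log2 fold changes ranged from -0.291 to 0.0317 for Tap1, -0.239 to 0.125 for Ifit2, -0.505 to 0.101 for Ifit3, -0.302 to 0.251 for Oas3, -0.549 to 0.0462 for Cd274, -0.483 to 0.114 for Apol9a and -0.326 to 0.224 for Apol10b, each highest without Tyk2wt replicate 3, and that of Oas3 was also above 0 without Tyk2wt replicate 2 or Tyk2DIEC replicate 2 or 3 (0.00866, 0.0570 and 0.0490) and with limma voom (0.0303).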

Other observations

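Of 12 mast cell and eosinophil, 10 dendritic cell and 16 neutrophil markers, 1, 3 and 4 were lower in Tyk2DIEC without overlap. Of all genes 12.2% were. Of 8 Hoxb genes, which pattern the colon along its length, 7 were above 0 with a median log2 fold change of 0.45, and Hoxb13, the most distal, was at -0.17 (adjusted p = 0.125 from edgeR). Of 26 genes of xenobiotic and lipid metabolism 0 were called in edgeR, DESeq2 and limma voom and 2 had an unadjusted p under 0.05 in edgeR, and Cyp2b10, a cytochrome P450, had a log2 fold change of 0.62 (adjusted p = 0.101). Hypoxia and glycolysis genes had a median of -0.05 over 19 genes, and 9 mitochondrially encoded genes one of -0.15.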
